A study of Mus musculus with 96 samples.

Results

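Of 96 single neurons recorded and picked from the mouse preoptic area, 24 carried Adcyap1 messenger RNA at a normalized level (CPM) of 10 or more and are called Adcyap1 cells here, and the other 72 are called other cells. CPM stands for counts per 1000000 and is the cell's count of a gene divided by the cell's total count and multiplied by 1000000. The cells were thus chosen by their own Adcyap1 level, so that level is described below without a test, and the comparison concerns all other genes and the recorded temperature class. Each cell was recorded by whole-cell patch clamp in an acute brain slice, harvested with a glass pipette and amplified with Smart-seq2. All cells came from C57BL/6N mice aged 2 to 3 months, with no transgene, drug or other treatment in the labels. The labels give 21 cells as warm-sensitive, 5 as cold-sensitive, 24 as insensitive, 10 as silent sensitive, 18 as silent insensitive and 18 as of unknown temperature sensitivity. The labels tie no cell to an animal or a slice, so each of the groups counts as 1 sample and its values are given without a test. The 95% intervals are exact Clopper-Pearson intervals that cover counting error only and treat cells as independent draws.

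Adcyap1 encodes pituitary adenylate cyclase-activating polypeptide (PACAP), a peptide that is packed in dense-core granules and released by neurons. Its main receptor, encoded by Adcyap1r1, couples to Gs and raises cyclic AMP, which activates protein kinase A and the transcription factor CREB. In the preoptic area, a centre of body temperature control, Adcyap1 together with Bdnf is known as a marker of neurons activated by warmth in the intact animal, and excitatory preoptic neurons with Adcyap1 have been tied to torpor.

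Bdnf is a well-known target of CREB, and PACAP signals through CREB, which binds the cyclic AMP response element TGACGTCA or its 5-base core TGACG. The promoters of Adcyap1 and Bdnf are therefore shown, as the 250 bases before a transcription start in RefSeq (GRCm38.p6, the assembly of mm10), both on the plus strand. For Bdnf, which has several alternative starts, the window belongs to a start inside the gene and was picked because it alone holds the core. Adcyap1 lies at chr17:93198767-93199016 and Bdnf at chr2:109692186-109692435, and capitals mark the core motif on either strand (TGACG or CGTCA).
Adcyap1: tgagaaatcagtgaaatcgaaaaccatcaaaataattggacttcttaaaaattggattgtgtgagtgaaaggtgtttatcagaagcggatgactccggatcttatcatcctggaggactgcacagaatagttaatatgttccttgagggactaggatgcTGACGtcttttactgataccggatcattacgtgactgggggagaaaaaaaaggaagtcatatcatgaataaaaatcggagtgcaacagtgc
Bdnf: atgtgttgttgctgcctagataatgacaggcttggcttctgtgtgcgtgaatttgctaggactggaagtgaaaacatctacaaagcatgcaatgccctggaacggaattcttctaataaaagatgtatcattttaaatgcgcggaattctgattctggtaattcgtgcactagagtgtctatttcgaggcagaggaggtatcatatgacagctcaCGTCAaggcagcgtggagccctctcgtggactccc
The core begins 91 bases before the Adcyap1 start shown and 35 bases before the Bdnf start shown, and neither window holds the 8-base element. Both of the 2 Adcyap1 starts in the table hold the core, and 1 of the 7 Bdnf starts does. Of all 32851 promoters in the table, 17.8% hold the core within the same 250 bases and 1.55% hold the full element. These matches describe the sequence and are not evidence of binding.

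Adcyap1 was concentrated in few cells. At least 1 count was found in 46 cells, and the 24 Adcyap1 cells held 6724 of the 6772 Adcyap1 counts (99.3%). Levels in these 24 cells ran from 13.99 to 1038 CPM with a median of 134 CPM. The 2 cells just above the threshold stood at 13.99 and 23.3 CPM, and the 2 just below it at 9.54 and 3.58 CPM. Of the 22 cells with some Adcyap1 below 10 CPM, 15 had exactly 1 count.

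The share of Adcyap1 cells differed in size between temperature classes. Warm-sensitive cells had the lowest share, with 2 of 21 cells (9.52%, interval 1.18 to 30.4%), and cells of unknown class the highest, with 8 of 18 (44.4%, 21.5 to 69.2%). Between these stood 1 of 5 cold-sensitive cells, 2 of 10 silent sensitive cells, 6 of 24 insensitive cells (25%) and 5 of 18 silent insensitive cells (27.8%). All these intervals overlap, so no order of the classes is separated at this number of cells.

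Levels also varied within classes. The 2 warm-sensitive Adcyap1 cells had 132 and 73.4 CPM, the 1 cold-sensitive cell had 58.8 CPM, and the 2 silent sensitive cells had 1038 and 435 CPM. Insensitive Adcyap1 cells ranged from 13.99 to 545.5 CPM with a median of 49.3 CPM, and silent insensitive ones from 23.3 to 245 CPM with a median of 47.1 CPM. In the cells of unknown class the range was 87.4 to 863 CPM with a median of 190 CPM. The highest level thus belonged to a silent sensitive cell, while every class with an Adcyap1 cell also held cells without an Adcyap1 count.

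**Figure D1:**
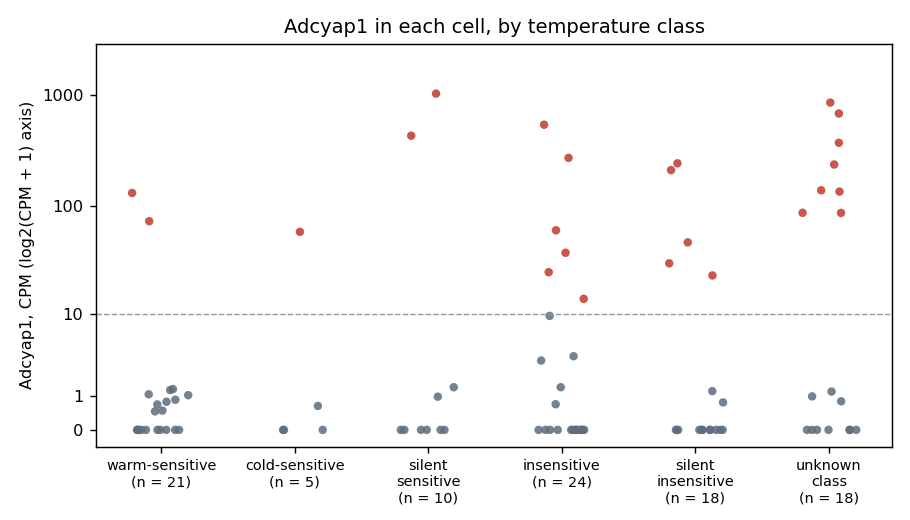
Adcyap1 in each of the 96 cells by temperature class, in CPM on a log2(CPM + 1) axis; red points are the 24 cells at 10 CPM or more, grey points the other 72, and the dashed line is the 10 CPM threshold that chose them. Only 2 of 21 warm-sensitive cells lie above the line, and the highest point is a silent sensitive cell at 1038 CPM.

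Seen from the other side, 16 of the 24 Adcyap1 cells and 62 of the 72 other cells had a temperature class. Warm-sensitive cells made up 12.5% (1.55 to 38.4%) of the classified Adcyap1 cells and 30.6% (19.6 to 43.7%) of the classified other cells. All sensitive classes together made up 31.2% (11.02 to 58.7%) of Adcyap1 cells, which is 5 cells, and 50% (37.0 to 63.0%) of other cells, which is 31 cells. Cold-sensitive shares were 6.25% and 6.45%, and silent sensitive shares 12.5% and 12.9%. Each pair of intervals overlaps. The direction also depended on the Adcyap1 threshold: at 1 count or more, warm-sensitive cells were 31.4% of Adcyap1 cells and 23.3% of others, and all sensitive classes 48.6% and 44.2%. At 50 CPM or more, warm-sensitive cells were 20% and 27.9%, and all sensitive classes 50% and 45.6%. No lack or excess of sensitive cells among Adcyap1 cells is shown. The 8 Adcyap1 cells of unknown class entered neither share.

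Library quality differed between the groups in the same direction as most genes. Rn45s, the precursor of ribosomal RNA, took a median of 45.1% of counts in Adcyap1 cells and 59.0% in other cells. Median counts outside Rn45s were 639428 and 524176.5, and the genes with a count numbered 4032.5 (median, 2686 to 7770) against 3471.5 (1615 to 7210). Over 75% of counts were Rn45s in 1 Adcyap1 cell and in 14 other cells. The titles sort the cells into 8 letters of 12 cells, whose meaning the labels do not give, and 20 of the 24 Adcyap1 cells carried A, D, E or H, 5 each, while B held none. All 5 Adcyap1 cells of letter H were of unknown class, so letter and class cannot be told apart for them. Both groups were neuronal by their markers, with summed CPM over 16 pan-neuronal genes of 7179 (median; 1753 to 17560) in Adcyap1 cells and 5774 (469 to 17260) in others.

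Glial transcripts were present in both groups. Summed over 10 microglia markers, the median was 715 CPM (2.00 to 21030) in Adcyap1 cells and 525 CPM (2.85 to 24550) in others. Astrocyte markers summed to 995 CPM (7.93 to 9286) and 801 CPM (2.55 to 4905), and oligodendrocyte markers to 236 CPM (1.56 to 18400) and 218 CPM (0.985 to 24810). Of 20 eligible glial markers, only the oligodendrocyte-list gene Apod was past the threshold described next. Apod was found in 37.5% of Adcyap1 cells and 16.7% of others, with a relative difference of 1.12, or 0.82 without warm-sensitive cell 5. It was eligible through Adcyap1 cells only, so the filter partly fixed its direction. Endothelial markers had a median of 0 in both groups, with Cldn5 at 0 in every cell. The part of glial RNA in the differences below was not tested.

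Each gene was compared by its group means of log2(CPM + 1), which understate the differences of low genes. Eligible for this were 4372 genes that reached 10 CPM in no fewer than 25% of cells (3 cells or more) of Adcyap1 or of other cells. For a gene that passed through 1 group only, the filter partly fixed the direction of its difference. The median gene was 0.66 higher in Adcyap1 cells, and 3712 of the 4372 genes were higher there, so each gene is given relative to that median. A gene below the median gene by less than 0.66 thus still had a higher mean in Adcyap1 cells. On this relative scale 229 genes (5.24%) were higher in Adcyap1 cells by 1 or more, a 2-fold difference, and 293 genes (6.7%) were lower by 1 or more. These 2 shares are the background for every list below. How far library quality accounts for them was not tested; the named genes were required to keep their direction within title letters and within 3 equal groups of the cells ordered by genes detected.

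Slc17a6 was higher in Adcyap1 cells, and Gad1 had a lower mean there, though its share of cells was not separated. Slc17a6, the vesicular glutamate transporter VGLUT2 that marks excitatory hypothalamic neurons (chromosome 7, 51622006 to 51671119, mm10), ran from 0 to 1043 CPM with a median of 99.2 CPM in Adcyap1 cells, and from 0 to 844 CPM with a median of 0.68 CPM in others. It reached 10 CPM in 62.5% (40.6 to 81.2%) of Adcyap1 cells and 27.8% (17.9 to 39.6%) of other cells, intervals that do not overlap. Its relative difference was 2.18, or 1.90 within title letters and 1.15 among the 78 classified cells. Among Adcyap1 cells of unknown class, 7 of 8 had Slc17a6 at 10 CPM or more. In the sum of all counts Slc17a6 was 0.90 above the median gene, below the 2-fold threshold.

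Among the GABAergic genes, Gad1, which makes GABA, had a median of 4.74 CPM (0 to 688) in Adcyap1 cells and 61.1 CPM (0 to 2598) in others, with a relative difference of -1.93, or -0.76 when cells with and without Slc17a6 were compared separately and averaged. Gad1 reached 10 CPM in 45.83% (25.55 to 67.18%) of Adcyap1 cells and 58.33% (46.11 to 69.85%) of others, intervals that overlap. Gad2, the other GABA-synthesizing enzyme, had medians of 44.0 and 41.4 CPM and a relative difference of -0.96, or -1.18 without silent sensitive cell 1. Slc32a1, the vesicular GABA transporter, was found in 8.33% and 15.3% of cells, too few to be compared. Of these GABAergic genes Gad1 alone was past the threshold, on the lower side, where 6.7% of all genes lay. The ranges of Gad1 and Slc17a6 overlapped between the groups.

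The cells were then sorted by these genes at 10 CPM. Cells with Gad1 or Gad2 and no Slc17a6 were 25% (9.77 to 46.7%) of Adcyap1 cells and 56.9% (44.7 to 68.6%) of others. Cells with Slc17a6 alone were 29.2% (12.6 to 51.1%) and 12.5% (5.88 to 22.4%), and cells with both 33.3% (15.6 to 55.3%) and 15.3% (7.88 to 25.7%). In each of these classes the intervals of the groups overlap, narrowly for GAD genes alone. Of all 47 cells with GAD genes alone, 6 were Adcyap1 cells (12.8%), against 15 of the 35 cells with Slc17a6 (42.9%). At 1 count every one of the 96 cells had Gad1 or Gad2, so classes at that limit say little. After each cell was thinned to 100000 counts outside Rn45s, Slc17a6 had at least 1 count in 75% of 24 Adcyap1 cells and 38.0% of 71 other cells, with 1 shallower cell left out.

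**Figure D2:**
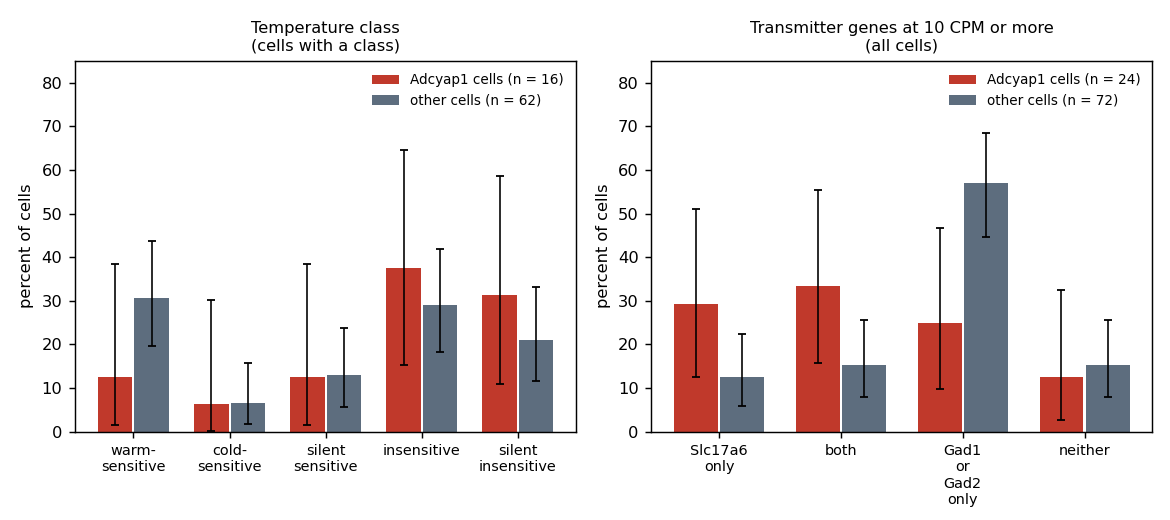
Percent of cells, with exact 95% intervals as bars, in each temperature class (left, 16 and 62 classified cells) and with Slc17a6, Gad1 or Gad2 at 10 CPM or more (right, 24 and 72 cells); red is Adcyap1 cells and grey other cells. The intervals overlap in every temperature class and in every transmitter class. The overlap is narrow for cells with GAD genes alone, which are 25% of Adcyap1 cells and 56.9% of others.

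Bdnf, which encodes brain-derived neurotrophic factor (chromosome 2, 109674700 to 109727007), had the lowest share in other cells among the 12 higher named genes. Its level ran from 0 to 850 CPM with a median of 2.84 CPM in Adcyap1 cells and from 0 to 953 CPM with a median of 0 in others. It reached 10 CPM in 10 of 24 Adcyap1 cells (41.7%, 22.1 to 63.4%) and 5 of 72 other cells (6.94%, 2.29 to 15.5%), and its relative difference was 2.01. Bdnf was eligible through Adcyap1 cells only. Of the 5 other cells with Bdnf, insensitive cell 22 had 9.54 CPM and insensitive cell 12 had 3.19 CPM of Adcyap1, the first just under the threshold, and 3 had none.

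Some Adcyap1 cells held both Bdnf and Slc17a6. Both were at 10 CPM or more in 8 of 24 Adcyap1 cells (33.3%, 15.6 to 55.3%) and in 3 of 72 others (4.17%, 0.868 to 11.7%). Of the 11 cells with both, 8 were Adcyap1 cells. Each gene alone was already more frequent in Adcyap1 cells, which by itself raises the share with both. Whether the 2 genes go together beyond that was not tested. Among cells with Slc17a6, Bdnf was found in 8 of 15 Adcyap1 cells and 3 of 20 others, and among cells without it, in 2 of 9 and 2 of 52. When cells with and without Slc17a6 were compared separately and averaged, Bdnf differed by 1.68. By class, Bdnf was found in 0 of 2 warm-sensitive, 0 of 1 cold-sensitive, 1 of 2 silent sensitive, 3 of 6 insensitive, 2 of 5 silent insensitive and 4 of 8 unknown Adcyap1 cells. No warm-sensitive or cold-sensitive Adcyap1 cell thus had Bdnf, in 3 cells only.

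Adcyap1 cells were not alike among themselves. Of the 12 with the higher Adcyap1 levels (136 to 1038 CPM), 7 had Bdnf and 4 had Gad1 or Gad2; of the 12 lower ones (13.99 to 132 CPM), 3 had Bdnf and 10 had Gad1 or Gad2. Slc17a6 was found in 8 and 7 of them. The cell with the most Adcyap1, silent sensitive cell 8, also had 850 CPM of Bdnf and 387 CPM of Slc17a6, and at most 4.95 CPM of either GAD gene. At the other end, insensitive cell 17, with 13.99 CPM of Adcyap1, had no Bdnf, 6.22 CPM of Slc17a6, 31.9 CPM of Gad1 and 108 CPM of Gad2. These splits use the level that chose the cells and are descriptions only.

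Sensitive and insensitive Adcyap1 cells number only 5 and 11. Slc17a6 was found in 3 and 5 of them, Gad1 in 2 and 6, Bdnf in 1 and 5 and Calb2 in 3 and 9. Of the genes described here, Glrx5 was found in 1 of 5 and 10 of 11 cells and Avp in 2 of 5 and 10 of 11. Both were chosen after their values were seen. Large differences were common in this split. Relative to the median gene, 18.4% of 4895 eligible genes were lower in sensitive cells by 2-fold or more, and 23.1% were higher. Quality moved with this split too, with a median Rn45s share of 53.8% against 45.8%, 2910 against 4177 genes with a count, and a median gene 1.57 lower in the sensitive cells.

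The largest relative difference among the named genes belonged to Dstn (2.99), which encodes destrin, an actin-depolymerizing protein (chromosome 2, 143915320 to 143943324). Its median was 212.5 CPM (0 to 736) in Adcyap1 cells and 1.24 CPM (0 to 701) in others, and it reached 10 CPM in 79.2% (57.9 to 92.9%) and 31.9% (21.4 to 44.0%). Most Adcyap1 cells stood far above 10 CPM, while the ranges of the groups were nearly the same. Dstn was found in 13 of 15 Adcyap1 cells with Slc17a6 and 7 of 20 other cells with it.

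Kcnip1, Cacna2d1, Ppp3ca and Rrad were also among the 12 higher named genes. Kcnip1, a calcium-binding subunit of Kv4 potassium channels (chromosome 11, 33629339 to 33993152), had medians of 93.8 CPM (0 to 1894) and 0.912 CPM (0 to 613), was found in 54.2% and 20.8% of cells and differed by 2.13. Cacna2d1, the calcium channel subunit that binds gabapentin (chromosome 5, 15934691 to 16374511), had medians of 58.5 and 0.193 CPM, shares of 58.3% and 26.4% and a relative difference of 2.00. Ppp3ca, the catalytic subunit of the calcium-dependent phosphatase calcineurin, was found in 87.5% and 44.4% of cells and differed by 1.98. Rrad, a small GTPase that restrains voltage-gated calcium channels, was found in 54.2% and 25% and differed by 1.98. For Cacna2d1 and Ppp3ca the difference in summed counts was 0.99 and 0.51, below the 2-fold threshold.

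The other 5 higher genes were Fuca1, Ncdn, Ankrd11, Glrx5 and Rgs4. Fuca1, a lysosomal fucosidase, was found in 66.7% of Adcyap1 cells and 20.8% of others and differed by 2.49. Ncdn, a cytosolic protein of neurites, was at 10 CPM or more in all 24 Adcyap1 cells (19.2 to 1941 CPM) and in 62.5% of others (0 to 1904 CPM), a difference of 2.30. Ankrd11, a chromatin regulator, was found in 75% and 40.3% and differed by 2.15, or 1.45 within title letters. Glrx5, a mitochondrial glutaredoxin of iron-sulfur cluster assembly, differed by 2.06, and Rgs4, which speeds the shut-off of G proteins, by 2.01. In summed counts Ncdn (0.70), Ankrd11 (0.83), Glrx5 (0.99) and Rgs4 (0.49) were below the 2-fold threshold. The intervals of the shares overlap between the groups for Glrx5, Rgs4, Cacna2d1 and Rrad. For the other higher named genes they do not, but these genes were picked for the size of the difference. How many of all eligible genes have intervals that do not overlap was not counted, so nothing is concluded from this. Bdnf, Fuca1 and Kcnip1 were eligible only through Adcyap1 cells.

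**Figure D3:**
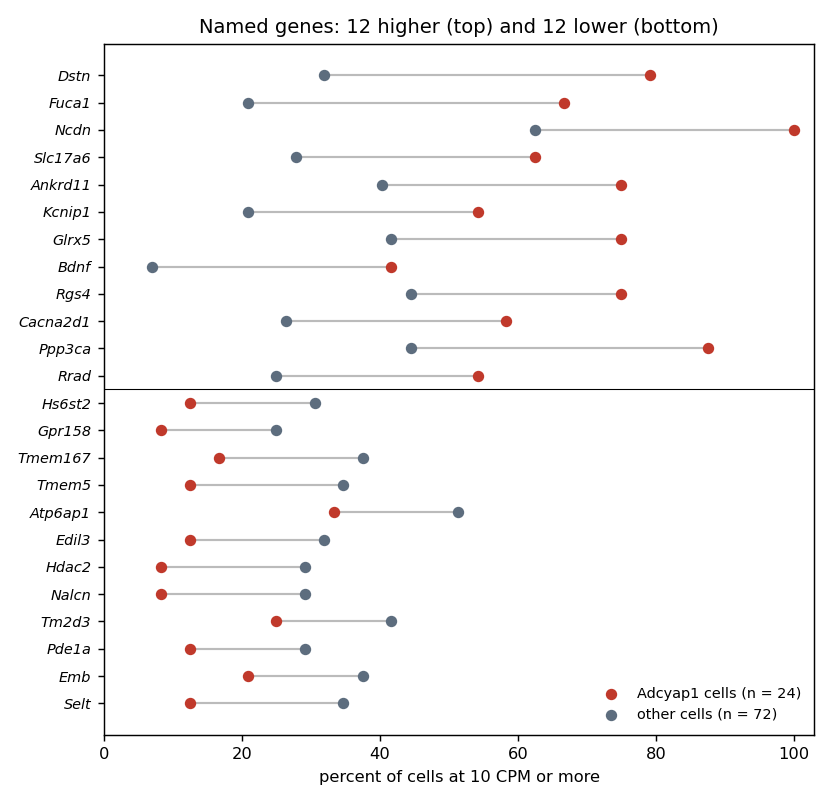
Percent of Adcyap1 cells (red, 24) and other cells (grey, 72) at 10 CPM or more for the 12 higher and the 12 lower named genes, in order of relative difference. Bdnf has the lowest share in other cells among the higher genes (6.94%), and Gpr158, Hdac2 and Nalcn have the lowest shares in Adcyap1 cells (8.33%).

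The 12 lower named genes include several membrane proteins. All but Atp6ap1 and Tm2d3 were eligible only through the other cells, where they were more frequent, so the filter partly fixed their direction. Nalcn, the sodium leak channel that depolarizes resting neurons (chromosome 14, 123276634 to 123627144), was found in 2 of 24 Adcyap1 cells (8.33%, 1.03 to 27%) and 21 of 72 others (29.2%, 19.05 to 41.1%). Its highest level was 21.9 CPM in Adcyap1 cells and 575 CPM in others, its median was 0 in both, and its relative difference was -2.06. Without Slc17a6, 1 of 9 Adcyap1 cells and 18 of 52 others had it; with Slc17a6, 1 of 15 and 3 of 20 did.

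Gpr158, an orphan receptor of the synapse, was found in 8.33% and 25% of cells and differed by -2.18, with a highest level of 59.3 CPM in Adcyap1 cells and 448 CPM in others. Hs6st2, which adds sulfate to heparan sulfate chains, was found in 12.5% and 30.6% and differed by -2.23. Edil3, an extracellular ligand of integrins, was found in 12.5% and 31.9% and differed by -2.07. Emb (embigin), a surface glycoprotein that chaperones monocarboxylate transporters, differed by -1.98. In each of these the median Adcyap1 cell stood below 1 CPM, as did the median other cell for Hs6st2, Gpr158 and Edil3.

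Among intracellular proteins, Hdac2, a histone deacetylase, was found in 8.33% and 29.2% of cells and differed by -2.06. Pde1a, a calmodulin-dependent phosphodiesterase, was found in 12.5% and 29.2% and differed by -1.998. Atp6ap1, an accessory subunit of the vacuolar proton pump, was found in 33.3% and 51.4% and differed by -2.13. The others were Selt (selenoprotein T, -1.95), Tmem167 (-2.17), Tmem5 (-2.14) and Tm2d3 (-2.04). The intervals of the shares overlap between the groups for each of the 12 lower genes.

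**Figure D4:**
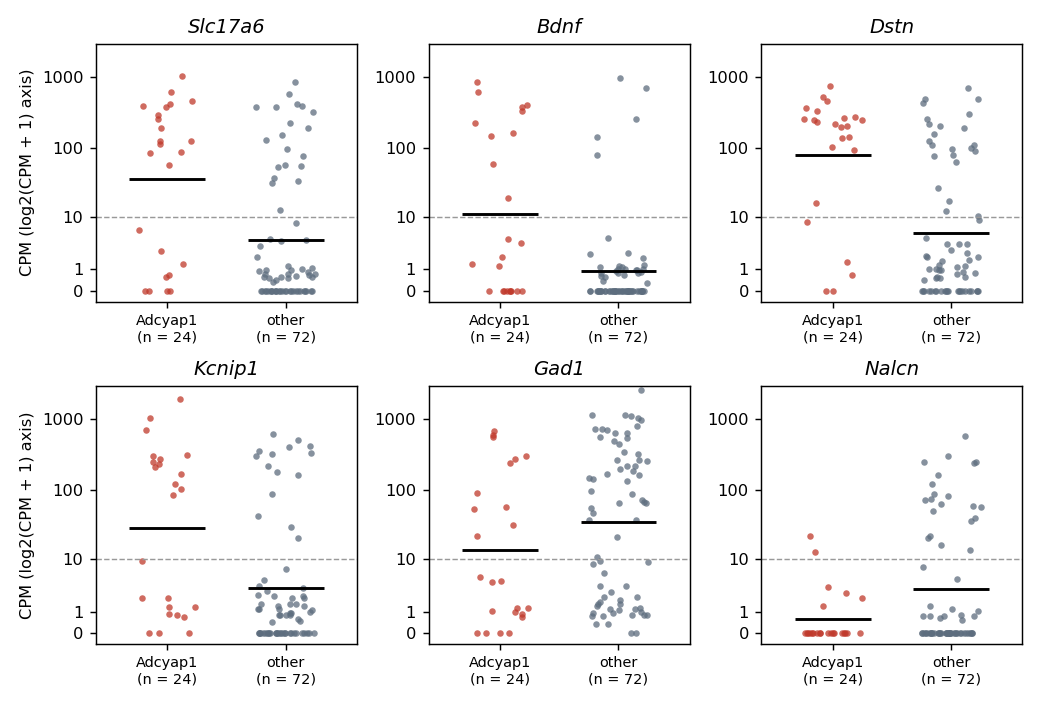
Slc17a6, Bdnf, Dstn, Kcnip1, Gad1 and Nalcn in each cell, in CPM on a log2(CPM + 1) axis; red is Adcyap1 cells (24) and grey other cells (72), the black bar is the group mean on that axis and the dashed line is 10 CPM. Every gene has cells near 0 in both groups, and only 2 Adcyap1 cells exceed 10 CPM of Nalcn, with a highest value of 21.9 CPM.

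In the PACAP pathway itself, the receptor gene Adcyap1r1 was found in 25% of Adcyap1 cells and 27.8% of others, with a relative difference of -0.91, or -1.16 without insensitive cell 14. Its difference before the median was subtracted was -0.25. Of the 7 further genes of PACAP-related receptors and peptides none was frequent enough to be compared; Vipr2, a receptor shared by PACAP and VIP, was found in 0 of 24 Adcyap1 cells and 2.78% of others. Of 6 eligible peptide-processing genes only Pam was past the threshold. Pam, which amidates peptide ends as PACAP requires, had medians of 198 CPM (0.774 to 1882) and 5.42 CPM (0 to 1588) and differed by 1.48, or 0.96 within title letters. Pcsk2 (0.07), a prohormone convertase, and Cpe (0.25), which trims peptide ends, lay near the median gene, and Pcsk1 was found in 8.33% and 9.72% of cells.

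Of the granule proteins, none of 9 eligible members was higher past the threshold and 3 were lower, beside 6.7% of all genes: Cadps (-1.37), which primes dense-core granules, Scg3 (-1.32), a granin, and Vgf (-1.24), a neuropeptide precursor. Scg2, secretogranin II, differed by 0.41, with medians of 441 CPM (2.10 to 9032) and 322 CPM (0.937 to 9219).

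Downstream of the receptor, 1 of 12 eligible cyclic AMP genes was higher, the phosphodiesterase Pde4b (1.21), and 2 were lower, Pde1a and the phosphodiesterase Pde4a (-1.51). Pde4b differed by 0.93 without insensitive cell 14 and by 0.75 among classified cells. The catalytic subunits of protein kinase A, Prkaca (0.42) and Prkacb (0.55), lay closer to the median gene. Of 19 eligible activity-regulated and CREB target genes, Fosb alone was higher, and Vgf alone lower, beside 5.24% and 6.7% of all genes. Fosb, a partner of Jun in AP-1, was found in 75% and 51.4% of cells and differed by 1.26, but by 0.52 within title letters. Fos differed by 0.80 (1.02 without warm-sensitive cell 9), Arc by 0.76, Crem by 0.61, Nr4a1 by -0.42 and Egr1 by -0.71, on both sides of the median gene. Before the median was subtracted, 17 of the 19 were higher in Adcyap1 cells, beside 3712 of all 4372 eligible genes. The core motif printed above is held by 5 of 10 higher and 1 of 8 lower named genes that matched the promoter table, and by 19.8% of all 27025 genes of the table. A gene was counted if any of its starts held the core, as Bdnf does through 1 of 7. These few genes were not tested against that share, and a link to CREB was not tested.

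Calcium-binding and calmodulin genes had the highest list median apart from the pair of eligible warm-activation markers, 0.58 above the median gene, and 14 of 17 eligible members lay above it. Past the threshold were 3 of 17, beside 5.24% of all genes. Calb2, the calcium buffer calretinin, had medians of 57.7 CPM (0 to 673) and 4.94 CPM (0 to 549), was found in 79.2% (57.9 to 92.9%) and 41.7% (30.2 to 53.9%) of cells and differed by 1.36. Its share was high in Adcyap1 cells with and without Slc17a6, in 11 of 15 and 8 of 9, against 7 of 20 and 23 of 52 other cells. Camk2d and Camk2g, subunits of calmodulin-dependent kinase II, differed by 1.18 and 1.03, or by 0.89 without silent insensitive cell 11 and 0.77 without unknown class cell 13. In summed counts Calb2 differed by 0.24, and among classified cells by 0.94.

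**Figure D5:**
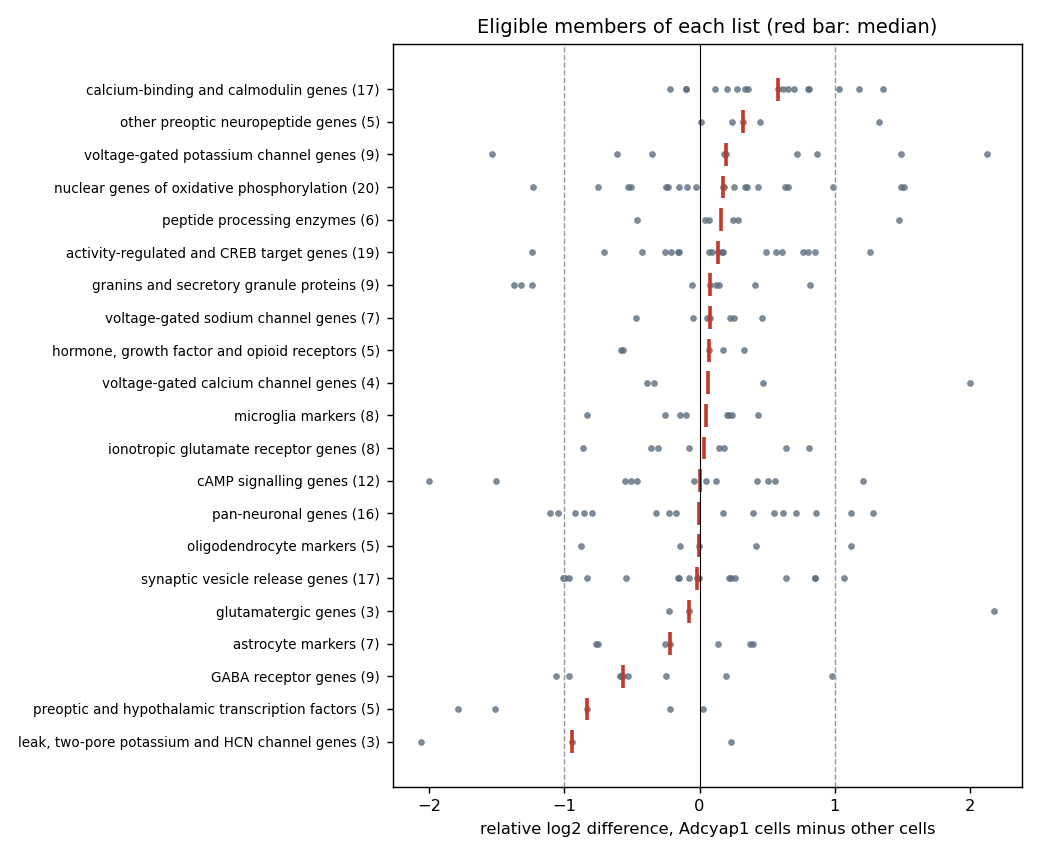
Relative log2 difference, Adcyap1 cells minus other cells, of each eligible gene (grey points) of the lists with at least 3 eligible genes, with the list median as a red bar and the number of genes in brackets; dashed lines mark a 2-fold difference either way. Calcium-binding and calmodulin genes have the highest median (0.58) and leak, tandem-pore and HCN channel genes the lowest (-0.94).

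Ion channels gave single genes rather than lists. Of 9 eligible voltage-gated potassium channel genes, Kcnip1 and Kcnab1 (1.49), a beta subunit, were higher and Kcnip4 (-1.54), another Kv4 partner, was lower. Cacna2d1 was the 1 of 4 eligible calcium channel genes past the threshold, none of 7 sodium channel genes was, and Nalcn was the 1 of 3 leak and tandem-pore channel genes. Kcnk2, the potassium channel TREK-1 that heat opens, was found in 29.2% and 16.7% of cells and differed by 0.23. No TRP channel gene was frequent enough to be compared: Trpm2, which heat activates in preoptic neurons, was found in 4.17% and 9.72% of cells, and Trpm3 in 16.7% and 4.17%.

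Of 9 eligible GABA receptor genes analysed here, Gabrg1 was lower (-1.06, or -0.94 without insensitive cell 1), and 7 of 9 lay below the median gene. Before the median was subtracted, 7 of the 9 were higher in Adcyap1 cells, beside 3712 of all 4372 eligible genes. The median difference of the 9 was 0.094. None of 8 eligible glutamate receptor genes was past the threshold. Among 5 eligible transcription factors none was higher and 2 were lower, Nr2f2 (-1.79), a nuclear receptor of interneuron development, and Zfhx3 (-1.51), a zinc finger factor of hypothalamic neurons. Synaptic release genes had 1 of 17 on each side, Nsf (1.07, or 0.88 without unknown class cell 13) and Cplx1 (-1.01, or -0.81 without insensitive cell 11). Pan-neuronal genes had 2 of 16 on each side. Nuclear genes of oxidative phosphorylation had 2 of 20 higher, Ndufb9 (1.51) and Uqcrc1 (1.49, or 0.54 within title letters), and 1 lower, Cox5a (-1.23, or -0.99 without insensitive cell 11). None of 5 eligible hormone, growth factor and opioid receptor genes was past the threshold.

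Other markers of preoptic neurons were mostly too rare to compare. Of 13 published markers of warm-activated or torpor-related neurons, Bdnf and Ptgds were eligible. Ptgds, a prostaglandin D synthase also made by glia, was found in 87.5% of Adcyap1 cells and 91.7% of others, with medians of 1095 CPM (2.00 to 58710) and 219 CPM (0.948 to 40810) and a relative difference of 0.64, or 0.33 without unknown class cell 6. Qrfp was found in 4.17% of Adcyap1 cells and 0% of others, Esr1 in 8.33% and 2.78%, Lepr in 4.17% and 2.78% and Nos1 in 4.17% and 6.94%. Among 5 eligible neuropeptide genes Avp, vasopressin, differed by 1.33, with 62.5% and 36.1% of cells at 10 CPM, but by -0.12 in summed counts. Tac1 (0.45), Trh (0.32), Cartpt (0.24) and Sst (0.01) were nearer the median gene, and Tac1 stood at -0.07 without silent sensitive cell 8, which had 14600 CPM.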

How the data were processed

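Per the labels, single preoptic neurons were recorded, picked and amplified with Smart-seq2. The counts deposited by the authors are whole numbers of reads for each gene in each cell. A second deposited file gives normalized signal, in each cell its counts times 1 factor. The submitters' processing notes name FastQC, STAR, edgeR and mm10, without versions. Not given in the sources used here are the annotation, the counter and its strand setting. Values of genes that overlap or have a near-identical copy are therefore uncertain.

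The table holds 24054 genes, 16282 with a count, and no identical cells (highest correlation 0.646). Total counts per cell ran from 465167 to 3660726. A pseudocount of 1 CPM was used. Named genes are the 12 highest and 12 lowest eligible genes whose share, raw and relative differences agree in sign, that keep at least 2/3 of the relative difference without any 1 cell, and that keep its sign within title letters and within 3 groups by genes detected. Predicted, ribosomal protein and mitochondrially encoded genes were left out of the ranking; 414 higher and 462 lower genes met the rule. The members and lists were chosen with earlier results of these data known. The results of some listed genes are not reported here. The measures were run on counts simulated from a pooled profile of all cells. That simulation held no group difference in library quality, so it says nothing on the effect of such a difference. Alternatives covered thresholds, pseudocounts, filters, library scaling (TMM, DESeq2 size factors, totals without Rn45s, the deposited normalized signal), thinning, summed counts, subsets of cells and leaving out each cell. The comparison of 10 CPM or more against no count was added after seeing the data. Gene coordinates are from GENCODE M21 on mm10 and promoters from RefSeq. Values were computed in Python 3.11.15 (pandas 2.3.3, numpy 2.4.6, scipy 1.17.1, matplotlib 3.10.9), and scaling factors in R 4.3.3 with DESeq2 1.42.0 and edgeR 4.0.16.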

Additional observations from a re-analysis of the deposited data

Results flagged for a closer look

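Levels of Slc17a6 and Bdnf in the Adcyap1 cells of each temperature class were screened by Dixon's gap in 6 groups of 5 to 8 cells, and in 4 of them 1 cell stood far from the rest. For normally distributed values about 1 in 20 groups would show this by chance, a rate that does not hold for unlogged values with many cells near 0, so these are descriptions. Slc17a6 stood apart at 411 CPM in insensitive cell 1 (next 112 CPM), at 83.7 CPM in silent insensitive cell 1 (next 0.575 CPM) and at 1043 CPM in unknown class cell 13 (next 462 CPM). Bdnf did so at 329 CPM in silent insensitive cell 8 (next 58.3 CPM). No cause was tested.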

How the results depend on the processing

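The median gene was 0.66 higher in Adcyap1 cells. This shift was 0.0022 with Adcyap1 at 1 count or more, 0.42 with totals without Rn45s and groups formed on that scale, 0.35 with a pseudocount of 10 CPM, 0.36 with DESeq2 size factors, 0.10 with no filter on low genes and 0.27 in summed counts. The 229 higher genes became 485 and 44 with pseudocounts of 0.1 and 10 CPM, 347 in the 78 classified cells, 1045 with no filter, 412 after thinning and 482 in summed counts. The 293 lower genes became 163 at 1 count or more, 489 at 50 CPM or more, 474 with totals without Rn45s in the same groups, 602 and 31 with those pseudocounts, 85 with no filter and 571 after thinning. The pseudocounts and summed counts kept the 4372 genes, but the other settings changed the number compared, so these counts are not shares. The main shares were 5.24% higher and 6.7% lower. At 1 count or more 4.62% of 3530 genes were lower, and at 50 CPM or more 12.3% of 3977. After thinning, 7.61% of 5412 genes were higher and 10.6% lower. With no filter 16281 genes were compared, 6.42% of them higher and 0.522% lower. The median subtracted from each gene with no filter was 0.10 in place of 0.66. The set of genes and the subtracted median changed together there, and their parts were not separated. The cause of these shifts was not tested.

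Slc17a6 was detected in 83.3% and 62.5% of Adcyap1 and other cells at 1 count, and Gad1 or Gad2 in 100% and 100% at 1 count and 79.2% and 91.5% after thinning. With Adcyap1 at 1 count or more these relative differences changed sign: Rgs4 to -0.0057, Pde1a to 0.095, Meg3 to 0.073, Ndufb9 to -0.16 and Pde4a to 0.11. In summed counts Avp (-0.12) and Meg3 (0.025) did, and with no filter the median of the warm-activation markers was -0.050. Of 480 values of the 24 named genes under 20 alternatives, 461 kept direction and side of the 2-fold threshold, 17 kept direction only and 2 changed sign. Of these 19, 11 came with Adcyap1 at 1 count or more, 7 in summed counts and 1, Slc17a6 itself (0.04), within Slc17a6 status. The choice of these genes partly fixes this count, since they are the most extreme ones and had to keep their sign within title letters and within groups by genes detected, both among the 20. The class shares under other Adcyap1 thresholds, given above, turned direction at 1 count or more, and for all sensitive classes at 50 CPM too.

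Leaving out each cell moved the median shift between 0.58 and 0.75, the higher genes between 203 and 245, the lower between 277 and 343, the sensitive share between 26.7% and 33.3% in Adcyap1 cells and 49.2% and 50.8% in others, and the warm-sensitive share between 6.67% and 13.3% and between 29.5% and 31.1%. No paired analysis was possible because no label links cells across groups. With 24 cells from an unknown number of animals, small differences between class shares were not detectable.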
